A study of Saccharomyces cerevisiae with 29 samples.

Results

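Stable unannotated transcripts (SUTs) are noncoding RNAs of budding yeast that were first mapped as transcripts visible in normal cells, outside annotated genes. The members described here are the SUT rows of the deposited table whose mean over 17 RNA libraries was at least 10 normalized reads, which is 734 of 847 SUT rows and of 20318 rows in all. Means of 9.85 (SUT598), 9.90 (SUT324) and 9.96 (SUT337) lay just below that minimum, and 10.1 (SUT211), 10.1 (SUT546) and 10.1 (SUT293) just above it.

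RNA polymerase II makes SUTs from the nucleosome-depleted promoters and ends of genes, often in the direction opposite to a gene. They carry a cap and a poly(A) tail, as mRNAs do, and many reach the cytoplasm, where decapping and the 5′ to 3′ exonuclease Xrn1 degrade them. Cryptic unstable transcripts (CUTs), a sister class, end early through Nrd1, Nab3 and Sen1, and are destroyed in the nucleus by the exosome with its 3′ to 5′ exonuclease Rrp6. XUTs are transcripts defined by their accumulation without Xrn1, and many overlap SUTs.

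The libraries are strand-specific, rRNA-depleted total RNA-seq of haploid MATa cells with RAD5, GAL, ura3, trp1-1, ade2-1, can1-100, his3-11,15 and leu2-3,112. The mutants were rad50Δ (rad50::KAN with URA3::GPD-TK7, a thymidine kinase cassette, 2 libraries), mre11Δ (mre11::HIS, 2 libraries) and mre11-H125N (mre11::mre11-H125N, a nuclease-dead allele, 2 libraries). They also included rrp6Δ (rrp6::TRP with URA3::GPD-TK7, 2 libraries), xrn1Δ (xrn1::ADE2, 2 libraries) and ku70Δ (ku70::HIS, 1 library). Wild type (WT) was sampled in S phase with methyl methanesulfonate (MMS, 2 libraries) and in G1 (4 libraries). Every culture was grown in rich medium with 2% glucose and held in G1 with 5 µg/ml of the mating pheromone α-factor for 170 min at 25 °C. The MMS cultures were then released into S phase with 0.033% of this DNA-alkylating agent for 60 min, so S phase and MMS cannot be told apart. The cassette in the rad50Δ and rrp6Δ strains is absent from WT, and its part in their values was not tested. Rad50 and Mre11, with Xrs2, form the MRX complex of DNA double-strand break repair, and Ku70 binds broken ends for end joining. The labels do not say that the libraries of a group came from separate cultures, so p-values measure the spread between these libraries, which may be technical.

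Depth was 7419447 to 32613640 reads over coding rows per library and 24271 to 470813 reads over SUT rows, with 1 read worth 0.337 to 2.43 normalized reads. The targeted genes followed the labels: RAD50, RRP6, XRN1 and YKU70 were at 0 to 15.8 normalized reads in their deletions, against 499 to 11927 in WT, and MRE11 was at 0 in mre11Δ and at 658 to 679 in mre11-H125N. The a-cell markers STE2, MFA1, MFA2, BAR1 and STE6 summed to 37236 to 114219 in the G1 mutant libraries, against 66138 to 88168 in WT G1, but to 3841 and 4112 in MMS. WT G1 libraries were not alike in phase markers, since the summed S phase genes (CLN2, CLB5, RNR1, HTA1 and HTB1) ran from 3320 to 19797, with the highest value in WT library 1. SUT values of replicate libraries correlated at r = 0.868 to 0.994 over the 734 members, lowest between WT libraries 1 and 3. In bulk RNA, fewer cells making an RNA and less of it per cell cannot be told apart.

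The SUT members were mostly antisense or divergent to coding genes. By coordinates, 393 of 734 (53.5%) shared at least 50 bases with a coding ORF on the other strand, and 131 members covered such an ORF whole. Another 178 (24.3%) began within 500 bases of the start of a coding transcript running the other way, 162 (22.1%) did neither, and 1 shared at least 50 bases with a coding transcript of its own strand. Antisense members were longer, with a median of 1129 bases, than divergent ones at 457 and the others at 585. Of all members, 477 shared at least 50% of their length with an XUT row on the same strand, with a median of 99.1% shared, so these SUT and XUT rows count largely the same reads. None shared that much with a CUT row, and 90 shared any base with one.

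SUTs were low beside coding RNAs. In WT G1 the median member had 59.0 normalized reads per kb, against 41.6 for XUT, 36.4 for CUT and 699 for coding rows, all over rows that met the same minimum over the 17 libraries, which include the deletions in which SUTs, XUTs and CUTs are higher. Of the 734 members, 30 had a WT G1 mean under 10 and met the minimum through other groups. Among the SUTs named later these are SUT159, SUT225, SUT465, SUT224, SUT072 and SUT293, and a rise of such a SUT is partly set by that minimum. Antisense members had a median of 50.2 per kb, the other members 71.7 and divergent ones 79.4. Per kb, the highest member in WT G1 was SUT350 (1409), which runs on chromosome 15 from 31666 to 33258 on the plus strand, 1144 bases ahead of ZPS1, a zinc-regulated gene. SUT298 (1112), SUT216 (757), SUT645 (620) and SUT315 (586) followed. SUT350 held 3.64% of all member reads in WT G1 and 4.69% in xrn1Δ.

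SUT RNA took a larger share of the libraries without either exonuclease. SUT rows drew 1.47 and 1.46 reads per 100 coding reads in xrn1Δ and 0.751 and 0.764 in rrp6Δ, against 0.264, 0.319, 0.357 and 0.350 in WT G1. Both deletions lay above every WT library, with no overlap. In xrn1Δ the share reflects both terms: member reads summed to 157235 ± 1223 in xrn1Δ (SD, n = 2) and 61616 ± 4177 in WT G1 (SD, n = 4), while normalized coding reads summed to 10651900 and 10839500 in xrn1Δ, against 18403300 to 21587900 in WT G1. The share was 0.402 and 0.450 in rad50Δ, above all WT libraries, and 0.351 and 0.389 in mre11Δ, 0.363 and 0.341 in mre11-H125N and 0.338 in ku70Δ, which overlapped WT. MMS libraries gave 0.295 and 0.303, inside the WT range.

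**Figure D1:**
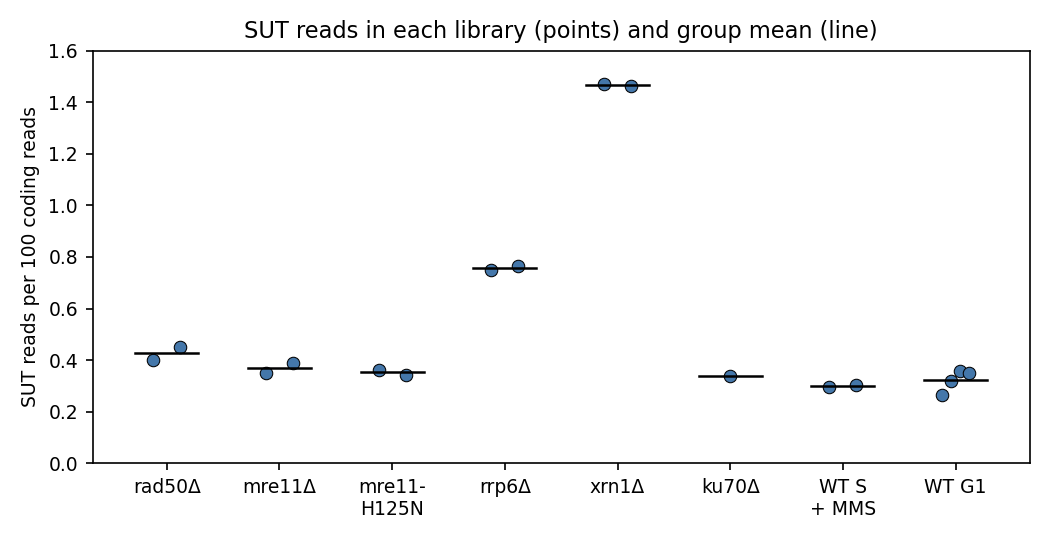
Reads on SUT rows per 100 reads on coding rows (y axis) in each of 17 libraries, by group; points are libraries and lines are group means. The xrn1Δ libraries sit at 1.46 and 1.47 and the rrp6Δ libraries at 0.751 and 0.764, above the WT G1 libraries at 0.264 to 0.357.

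Most SUTs were higher without Rrp6, by a median near 2-fold. Of 734 members, 428 rose and 7 fell in rrp6Δ against WT G1 (limma on log2(normalized reads + 1), Benjamini-Hochberg adjusted p under 0.05 over 16559 rows). That is 58.3% higher and 0.954% lower, beside 21.3% and 6.95% of all rows tested (28.3% in either direction). The median log2 change was 0.97 for SUTs, 1.19 for XUTs, 2.63 for CUTs and −0.003 for coding rows, and 0.12 over all rows. Without rrp6Δ library 2 the count was 268 higher and 3 lower. With trimmed-mean (TMM) scaling, which moved the median of all rows from 0.12 to −0.11, it was 361 higher and 21 lower, with a SUT median of 0.75.

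Of the 5 SUTs that rose furthest in rrp6Δ, 4 were 537 bases or shorter. SUT503, 209 bases on chromosome 5 (15773 to 15981, minus strand), had 858 and 917 normalized reads in rrp6Δ, against 57.1, 39.2, 28.5 and 44.8 in WT G1. Every rrp6Δ value lay far above every WT value, a log2 change of 4.40 (SE 0.38, limma adjusted p = 3.19e-06). It starts 196 bases from the divergent transcript of DLD3, a cytosolic 2-hydroxyglutarate transhydrogenase, whose ORF row fell to 10302 ± 424 in rrp6Δ (SD, n = 2), against 18295 ± 5236 in WT G1 (SD, n = 4; limma adjusted p = 0.0187). SUT264, between STM1 and the rDNA on chromosome 12 (449688 to 450728, plus strand), had 521 and 780 in rrp6Δ, against 36.2, 25.6, 49.6 and 57.6 in WT G1. The groups did not overlap, and the log2 change was 3.95 (limma adjusted p = 2.1e-06). How reads with several alignments were counted there is not given in the sources used here. SUT006, opposite the small ORF YBL029C-A, averaged 230 in rrp6Δ and 17.7 in WT G1, a log2 change of 3.72. SUT535 (3.69), and SUT279 (3.39), divergent to the Rab GTPase gene YPT6, completed the 5 largest rises.

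The 7 decreases in rrp6Δ were smaller, and the 5 largest included cases in which the opposite gene rose. SUT616 had 11.2 and 22.5 normalized reads in rrp6Δ, against 37.6, 71.6, 89.5 and 60.3 in WT G1 (log2 change −1.89, limma adjusted p = 0.00178). SUT600, whose end overlaps 73 bases of the flocculin gene FLO5, fell by 1.72 on the log2 scale, and FLO5 rose by 1.05 (limma adjusted p = 0.000105). SUT674 fell by 0.70 and the membrane protein gene SFK1 opposite it rose to 860 ± 109 in rrp6Δ, against 403 ± 194 in WT G1 (limma adjusted p = 0.0263). SUT138, opposite TOS2, fell by 0.97 and SUT208, opposite GWT1, by 0.98. The calls of SUT208, SUT138 and SUT674 were lost under 12, 2 and 3 of 18 alternatives.

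Nearly as many SUTs were higher without Xrn1, and more were lower. Of 734 members, 411 rose (56.0%) and 71 fell (9.67%) in xrn1Δ against WT G1, beside 35.1% and 28.9% of all rows (64.0% in either direction). The median log2 change was 0.97 for SUTs, 0.79 for XUTs, −0.32 for CUTs and 0.06 for coding rows, and 0.13 over all rows. The spread among SUTs was wide, with quartiles of 0.10 and 1.65, against 0.48 and 1.52 in rrp6Δ. SUTs that share at least 50% of their length with an XUT had a median of 1.04 and the rest 0.72. XUTs were defined elsewhere by this same deletion, so the first value is not independent of that choice. In rrp6Δ the same groups of SUTs had medians of 1.08 and 0.76, so the difference was not particular to xrn1Δ.

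**Figure D2:**
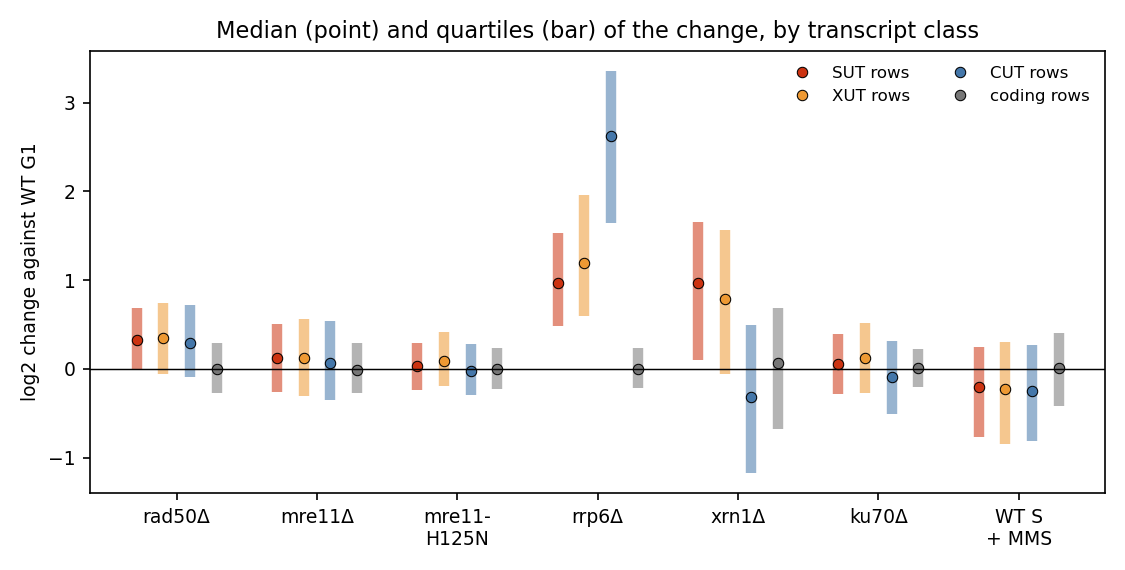
Median (points) and quartiles (bars) of the log2 change against WT G1 (y axis) for SUT, XUT, CUT and coding rows in each mutant and in MMS. In rrp6Δ the CUT median of 2.63 lies above the SUT median of 0.97, while in xrn1Δ the CUT median of −0.32 lies below the SUT median of 0.97.

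The largest rise in xrn1Δ was that of SUT643, which ends 128 bases ahead of IME1, the master regulator of meiosis. SUT643 (chromosome 10, 605936 to 607424, minus strand) had 1278 and 1218 normalized reads in xrn1Δ, against 29.3, 29.0, 115 and 57.6 in WT G1, a log2 change of 4.65 (SE 0.44, limma adjusted p = 1.35e-06). The xrn1Δ libraries were over 10 times the highest WT library. IME1 itself, lying downstream on the same strand, rose to 20.3 ± 0.149 in xrn1Δ (SD, n = 2), against 6.90 ± 4.78 in WT G1 (SD, n = 4; limma adjusted p = 0.00391). Transcription through the IME1 promoter is known to repress IME1. SUT643 also differed elsewhere: it averaged 124 in rrp6Δ, 175 in rad50Δ and 169 in mre11Δ (limma adjusted p = 0.0373, 0.0127 and 0.0155), and fell to 16.4 in MMS (0.0129), against 57.6 in WT G1.

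Long antisense SUTs made up the next rises in xrn1Δ. SUT048, 4912 bases and the longest member, covers all of PRM7, a pheromone-regulated gene, on chromosome 4 (381596 to 386507, plus strand). It had 471 and 560 normalized reads in xrn1Δ, against 43.2, 29.0, 65.9 and 46.6 in WT G1 (log2 change 3.51, limma adjusted p = 3.25e-07). PRM7 moved the other way, to 119 ± 11.7 in xrn1Δ, against 711 ± 276 in WT G1 (limma adjusted p = 3.76e-06). SUT238, opposite YKR015C, had 950 and 981 in xrn1Δ, against 93.4, 78.4, 127 and 99.6 in WT G1 (log2 change 3.29). YKR015C stood at 18.1 ± 2.45 in xrn1Δ and 17 ± 4.63 in WT G1 (limma adjusted p = 0.820). SUT225, opposite the mRNA export gene MTR2 and 784 bases ahead of ASH1, rose by 3.41 on the log2 scale, and ASH1, a daughter-cell repressor of HO, averaged 1273 ± 26.8 in xrn1Δ and 669 ± 428 in WT G1 (limma adjusted p = 0.0158). SUT072, opposite the TFIIIC subunit gene TFC6, rose by 3.27.

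The 71 SUTs that fell without Xrn1 include some of the most abundant in WT. SUT424, opposite VPS66 on chromosome 16 (813231 to 813727, plus strand), had 3.28 and 4.71 normalized reads in xrn1Δ, against 78.0, 95.5, 51.2 and 64.9 in WT G1 (log2 change −3.86, limma adjusted p = 2.82e-07). SUT041, opposite 1278 bases of HBT1, a gene of mating projection shape, had 7.29 and 5.05 in xrn1Δ, against 87.8, 69.9, 93.5 and 75.9 in WT G1, and HBT1 rose to 1684 ± 48.7 in xrn1Δ, against 654 ± 159 in WT G1 (limma adjusted p = 6.61e-05). SUT090, opposite the kinetochore gene SPC25, fell together with it, by 3.15 and 3.40. The remaining members of the 5 largest decreases were SUT143 (−2.82) and SUT211 (−2.70). Of the 5 members with the highest WT level per kb, SUT350 rose to 7368 in xrn1Δ, against 2244 in WT G1, while the other 4 fell. SUT216, which ends 104 bases ahead of the mitochondrial carrier gene SFC1, fell to 78.3 in xrn1Δ, against 382 in WT G1 (limma adjusted p = 1.44e-07).

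Changes were also set against SUT length. In xrn1Δ, 36.8% of members up to 585 bases rose, 57.4% of those up to 1129 bases and 73.9% of longer ones, with median log2 changes of 0.45, 0.97 and 1.3. The share that fell ran the other way, at 17.4%, 7.02% and 4.49%. In rrp6Δ the shares that rose over the same lengths were 52.2%, 57.4% and 65.3%, with medians of 0.94, 1.01 and 0.93. The shares that rose also followed length in rad50Δ (10.1%, 18.2% and 23.3%) and mre11Δ (4.45%, 9.5% and 18.4%), so this order of calls is not particular to xrn1Δ. Across the 734 members, Spearman's rho of the change with length was 0.35 in xrn1Δ and −0.04 in rrp6Δ, as a description, since members share libraries and counting precision. XUTs of the same length ranges had medians of 0.30, 0.88 and 1.33 in xrn1Δ, and coding rows −0.10, −0.11 and 0.18. The order by length was also present in XUTs. It is not independent of the order in SUTs, since 477 members share at least 50% of their length with an XUT row. Short rows also hold fewer reads.

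**Figure D3:**
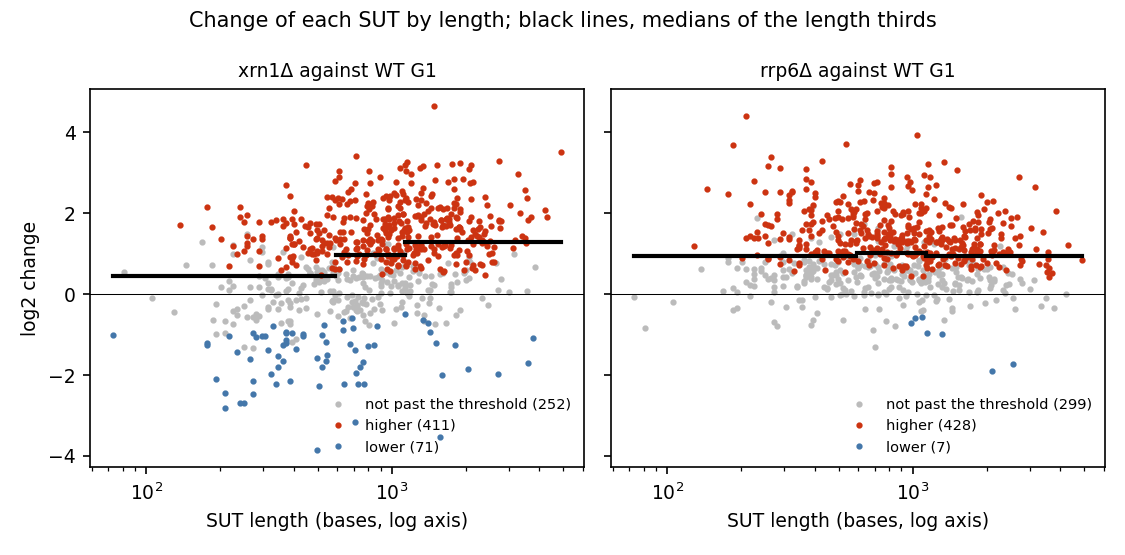
The log2 change of each of 734 SUTs (y axis) by its length in bases (x axis, log scale) in xrn1Δ and rrp6Δ against WT G1; red points rose, blue points fell, grey points did not pass the threshold, and black lines are the medians of members up to 585, up to 1129 and over 1129 bases. The medians are 0.45, 0.97 and 1.3 in xrn1Δ and 0.94, 1.01 and 0.93 in rrp6Δ.

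The exonuclease deletions were also compared directly, which leaves WT out. Of 734 members, 190 were higher and 213 lower in xrn1Δ than in rrp6Δ, or 25.9% and 29.0%, beside 23.5% and 32.5% of all rows (56.0% in either direction). The SUT median of −0.14 with the deposited scaling was 0.10 with TMM and 0.02 with edgeR on whole reads, so it has no direction that holds across scalings, and the all-row median was −0.10 with the deposited scaling and 0.14 with TMM. CUTs differed plainly, with 10 of 760 higher and 617 lower and a median of −2.76 (−2.53 with TMM). Within SUTs, 42.4% of members over 1129 bases were higher in xrn1Δ and 19.2% lower, while 10.5% of members up to 585 bases were higher and 40.1% lower. Of XUTs over 1129 bases, 34.1% were higher and 23.3% lower, and of those up to 585 bases 10.4% and 42.8%. For coding rows of these lengths the shares were 33.4% and 23.6%, and 17.8% and 35.9%. The order by length was therefore not particular to SUTs.

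Single SUTs differed between the exonuclease deletions by far more than the class. SUT503 averaged 6.79 normalized reads in xrn1Δ and 887 in rrp6Δ, a log2 difference of −6.84 (SE 0.44, limma adjusted p = 8.42e-08), against 42.4 in WT G1. SUT424 averaged 4.0 in xrn1Δ and 266 in rrp6Δ (−5.75), on either side of its WT mean of 72.4. SUT616 went the opposite way, with 596 and 556 in xrn1Δ, against 11.2 and 22.5 in rrp6Δ (5.09, limma adjusted p = 7.36e-07) and a WT mean of 64.8. SUT643 (3.32), SUT097 (3.25), opposite YER158C, and SUT279 (−4.98) completed the 3 largest differences in each direction.

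**Figure D4:**
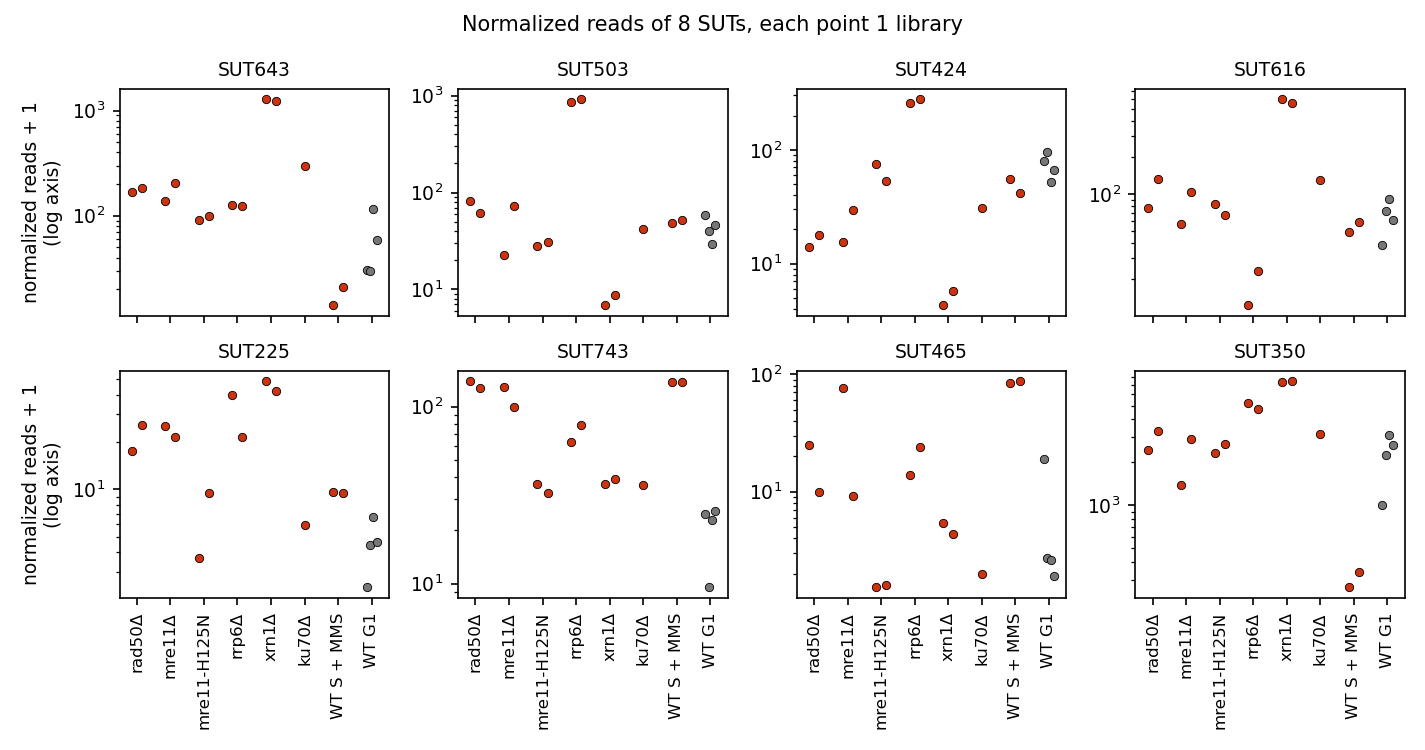
Normalized reads plus 1 (y axis, log scale) of 8 SUTs in each of 17 libraries, by group; each point is 1 library, red for mutants and MMS and grey for WT G1. SUT503 and SUT424 are high in rrp6Δ and low in xrn1Δ, SUT616 is the reverse, and SUT743 is highest in rad50Δ, mre11Δ and MMS.

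Some SUTs rose in rad50Δ and few fell. Of 734 members, 126 rose (17.2%) and 17 fell (2.32%) against WT G1, beside 12.4% and 9.32% of all rows (21.7% in either direction), with a median log2 change of 0.32 for SUTs, 0.35 for XUTs, 0.29 for CUTs and −0.01 for coding rows. Those that rose were 75 of 393 antisense, 25 of 178 divergent and 26 of 162 other members. Lowly expressed SUTs had higher values: the 245 members lowest per kb in WT G1 had a median of 0.66 and the 245 highest 0.18, where the WT level enters both measures. The count rests on both libraries, at 53 higher and 10 lower without rad50Δ library 1, 26 and 9 without library 2, and 38 and 10 when only rad50Δ and WT were fitted.

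The median SUT lay close to its WT level in mre11Δ. There 79 members rose (10.8%) and 30 fell (4.09%), beside 10.7% and 9.84% of all rows (20.5% in either direction), with a median of 0.12. The share that rose was that of all rows, while fewer SUTs fell. The count was 48 higher and 23 lower without mre11Δ library 1, and 21 and 5 when only mre11Δ and WT were fitted. Phase and cell type markers are given beside these values. Summed S phase genes were 5680 and 14042 in rad50Δ, inside the WT G1 range of 3320 to 19797, and 7323 and 43909 in mre11Δ. None of these genes passed in rad50Δ, and only CLN2 and HTB1 rose in mre11Δ (limma adjusted p = 0.0342 and 0.0201). The α-cell markers STE3, MFALPHA1, MFALPHA2 and SAG1 summed to 3706 and 4880 in rad50Δ and 1767 and 3351 in mre11Δ, against 291 to 420 in WT G1. Of these, MFALPHA2 and SAG1 rose in both mutants by limma, and STE3 did not pass in either. The sum was also above WT in xrn1Δ (1717 and 1728), ku70Δ (1487) and rrp6Δ (857 and 884). Its part in the counts of those mutants was not tested. Without library 1 of rad50Δ, mre11Δ and WT, the counts were 83 higher and 15 lower in rad50Δ and 57 and 27 in mre11Δ. The part of phase and cell type in these counts was not tested.

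The largest rises in rad50Δ and mre11Δ, which share their WT libraries, are given side by side. SUT743 covers all of PRM1, a pheromone-induced gene of mating cell fusion, on chromosome 14 (110847 to 112903, minus strand). It had 138 and 127 normalized reads in rad50Δ and 129 and 98.0 in mre11Δ, against 23.7, 8.53, 22.0 and 24.7 in WT G1 (limma adjusted p = 0.00016 and 0.000308). Both mutants lay above all WT libraries, and mre11-H125N stood at 35.3 and 31.7. PRM1 averaged 10048 ± 6902 in rad50Δ and 8187 ± 8918 in mre11Δ, against 15533 ± 6985 in WT G1, which did not pass the test. SUT001, near the left end of chromosome 1 (9368 to 9600, plus strand) and divergent to the permease-like gene SEO1, had 55.3 and 62.0 in rad50Δ and 75.3 and 65.3 in mre11Δ, against 6.97, 17.1, 12.2 and 8.22 in WT G1. SEO1 rose with it, by 1.02 in rad50Δ and 1.96 in mre11Δ (limma adjusted p = 0.0267 and 0.000736).

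The other large rises were low in absolute reads. SUT225, ahead of ASH1, averaged 20.6 in rad50Δ and 22.4 in mre11Δ, against 3.54 in WT G1. SUT159, opposite the RNase P subunit gene RPP1, averaged 12 in rad50Δ and 23.4 in mre11Δ, against 1.78 in WT G1. SUT398, divergent to FRK1, a kinase gene, rose in rad50Δ by 2.15, and FRK1 rose by 1.00 (limma adjusted p = 0.00822). SUT224, just ahead of SUT225, rose in mre11Δ by 2.15. ASH1 itself averaged 993 ± 141 in rad50Δ and 903 ± 91.6 in mre11Δ, against 669 ± 428 in WT G1 (limma adjusted p = 0.157 and 0.246).

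Decreases in these mutants were led by SUT424 in rad50Δ and by low SUTs in mre11Δ. SUT424 had 12.9 and 16.8 normalized reads in rad50Δ and 14.6 and 28.6 in mre11Δ, against 78.0, 95.5, 51.2 and 64.9 in WT G1 (log2 changes −2.19 and −1.74, limma adjusted p = 0.00059 and 0.00254). SUT041 averaged 33.2 in rad50Δ, against 81.8 in WT G1, and HBT1 opposite it rose by 2.49 (limma adjusted p = 1.4e-05). SUT138 (−1.34), SUT470 (−1.28), opposite YDR061W, and SUT116 (−1.23), opposite the choline transporter gene HNM1, also fell in rad50Δ. In mre11Δ the larger decreases were SUT727 (−2.22), opposite the glucose transporter gene HXT2, SUT293 (−2.20), SUT380 (−2.17) and SUT058 (−1.86). Their mre11Δ values were 0 to 10.2 normalized reads, or a few reads at this depth. The calls of SUT225, SUT398, SUT138, SUT041, SUT470 and SUT116 in rad50Δ, and of SUT224, SUT727, SUT293, SUT380, SUT058 and SUT424 in mre11Δ, were each lost under 1 to 9 of 18 alternatives.

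In mre11-H125N, 3 members rose and 5 fell against WT G1 (0.409% and 0.681%), beside 0.960% and 0.380% of all rows (1.34% in either direction), with a median of 0.03. SUT514, 4281 bases and opposite the permease gene FCY22, had 527 and 497 normalized reads in mre11-H125N, against 215, 256, 272 and 311 in WT G1 (log2 change 0.97, limma adjusted p = 0.00656). SUT592, opposite YHR177W, had 28.4 and 22.6 in mre11-H125N, against 75.2, 106, 87.8 and 85.9 in WT G1 (−1.76, limma adjusted p = 0.00103). The other calls were SUT605 (1.69), SUT352 (0.94), SUT090 (−2.87), SUT754 (−2.08), SUT645 (−1.70) and SUT047 (−1.62). All 8 were lost when mre11-H125N and WT were fitted alone, the count was 1 without mre11-H125N library 1, 16 without library 2, 5 without WT library 1 and 19 without WT library 3, and it was 31 with DESeq2 and 10 with edgeR on whole reads. With WT libraries 1 and 2 only it was 56 (41 higher and 15 lower), so the count depends on which WT libraries are used. The α-cell markers summed to 816 and 869 in mre11-H125N, against 291 to 420 in WT G1, and SAG1 among them rose by 1.29 (limma adjusted p = 0.0124). Their part in the result was not tested.

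Fitted against each other, mre11Δ and mre11-H125N differed in 96 members, of which 74 were higher in mre11Δ (10.1%) and 22 lower (3%), beside 8.03% and 6.81% of all rows (14.8% in either direction), with a median of 0.10. SUT743 averaged 113 in mre11Δ and 33.5 in mre11-H125N (limma adjusted p = 0.0122), and SUT424 averaged 21.6 in mre11Δ and 63.4 in mre11-H125N (0.0139). The total was 10 without mre11-H125N library 1, 52 without mre11-H125N library 2, 38 without mre11Δ library 1 and 16 when fitted alone. The summed S phase genes were 7323 and 43909 in mre11Δ and 3427 and 3805 in mre11-H125N, and their part in the result was not tested.

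In ku70Δ no member rose by limma and 3 fell (0.409%), beside 0.326% and 0.344% of all rows (0.670% in either direction), with 107 members at an unadjusted p under 0.05 in either direction. The spread of this single library was taken from the groups with replicates, and count-based tools were not run on it. SUT708, divergent to the sphingolipid regulator gene ORM2, had 5.98 normalized reads in ku70Δ, against 46.0, 39.2, 57.7 and 49.3 in WT G1 (limma adjusted p = 0.0381). DIC1, the mitochondrial dicarboxylate carrier gene that starts 43 bases past its end on the same strand, had 171 in ku70Δ, against 1014 ± 224 in WT G1 (limma adjusted p = 0.0216). SUT779, opposite RGS2, had 11.0 in ku70Δ, against 68.9 in WT G1, and SUT047 had 18.9 against 71.8 in WT G1. The count was 10 without WT library 3 and 25 with WT libraries 1 and 2 only, and the 3 calls were each lost under 1 to 6 of 14 alternatives.

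More SUTs fell than rose in S phase with MMS. Of 734 members, 181 fell (24.7%) and 65 rose (8.86%), beside 22.6% and 18.6% of all rows (41.3% in either direction), with a median of −0.20 for SUTs and 0.005 for coding rows. Decreases were near the share of all rows, while rises were fewer. Of the 245 members highest per kb in WT G1, 98 fell, with a median of −0.45, and of the 245 lowest 32 fell, with −0.06, where the WT level again enters both measures. Without MMS library 1 the counts were 99 lower and 34 higher, and with MMS and WT G1 fitted alone 114 and 41. Summed a-cell markers (3841 and 4112 in MMS, against 66138 to 88168 in WT G1), the pheromone-induced FUS1, AGA1 and KAR4 (2573 and 2764, against 11568 to 36846) and S phase genes (44191 and 47022, against 3320 to 19797) moved with this comparison, and their part in it was not tested.

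**Figure D5:**
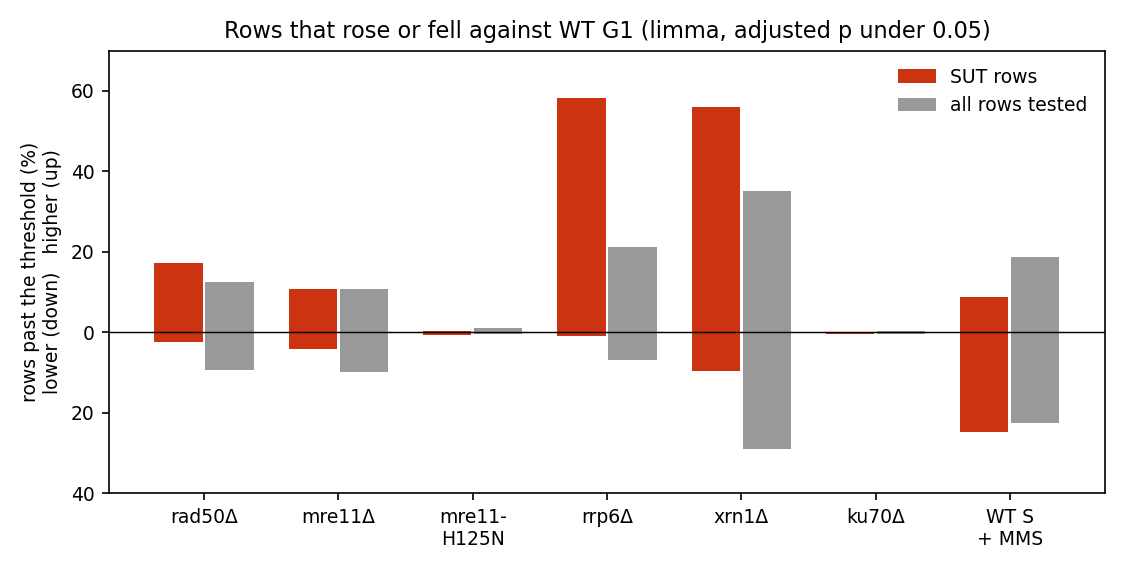
Percent of rows that rose (up) or fell (down) against WT G1 (limma, adjusted p under 0.05) in each mutant and in MMS, red for the 734 SUTs and grey for all 16559 rows tested. SUTs exceed all rows in rises in rrp6Δ (58.3% beside 21.3%) and xrn1Δ (56.0% beside 35.1%) and fall short of them in MMS (8.86% beside 18.6%).

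Divergent SUTs in MMS were set beside the genes they diverge from. The divergent coding gene rose beside 8 of 11 SUTs that rose and fell beside none, and among 48 SUTs that fell it fell beside 22 and rose beside 7. For divergent SUTs that did not pass, 26 genes rose and 25 fell of 117. SUT465 had 82.5 and 86.4 normalized reads in MMS, against 18.1, 1.71, 1.63 and 0.914 in WT G1 (log2 change 4.41, SE 0.91, limma adjusted p = 0.00189). WT library 1 stood far above the other 3 WT libraries, and both MMS libraries above all. The WT G1 mean of SUT465 lay below the minimum for members, which partly sets this rise and its p-value. MCD1, the S phase cohesin subunit gene that diverges from SUT465, averaged 3089 ± 184 in MMS (SD, n = 2) and 329 ± 490 in WT G1 (SD, n = 4; limma adjusted p = 0.0110). SUT242, 36 bases from the divergent transcript of the ribosomal protein gene RPL40B, had 2.17 and 0 in MMS, against 11.1, 17.1, 22.0 and 24.7 in WT G1, and RPL40B fell by 0.74 (limma adjusted p = 0.000766). SUT080 went against this pattern, falling by 2.89 while the bud neck kinase gene GIN4 rose by 2.00 (limma adjusted p = 0.0368), and its call was lost without MMS library 1.

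Antisense SUTs in MMS were set beside the genes opposite them. Of 80 genes opposite SUTs that fell, 30 rose and 15 fell, and of 42 opposite SUTs that rose, 4 rose and 12 fell, while opposite the 260 that did not pass 47 rose and 51 fell of 256 genes. Over all coding rows, 23.5% rose and 23.5% fell. The GIC1 locus on chromosome 8 holds SUTs that moved in both directions. SUT158, opposite GIC1 (221423 to 222335, plus strand), had 60.8 and 24.1 normalized reads in MMS, against 284, 445, 444 and 434 in WT G1 (log2 change −3.33, limma adjusted p = 0.000118). GIC1, an effector of the polarity GTPase Cdc42, averaged 199 ± 5.10 in MMS and 33.1 ± 20.9 in WT G1 (limma adjusted p = 0.00145). SUT159, which starts 460 bases from GIC1 and runs away from it, had 28.2 and 24.1 in MMS, against 2.79, 1.71, 0.813 and 1.83 in WT G1 (limma adjusted p = 3.47e-05). The WT G1 mean of SUT159 lay below the minimum for members, so this rise and its p-value are partly set by that minimum.

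SUT743 and PRM1, opposite each other, also moved apart. SUT743 had 137 and 137 normalized reads in MMS, against 23.7, 8.53, 22.0 and 24.7 in WT G1, and PRM1 fell to 875 ± 326 in MMS, against 15533 ± 6985 in WT G1 (limma adjusted p = 0.00125). SUT724 (2.5), which begins 1542 bases past the end of the polo kinase gene CDC5, and SUT172 (2.37), opposite NBL1, also rose. SUT264 fell to 2.17 and 2.83 in MMS, against 36.2, 25.6, 49.6 and 57.6 in WT G1 (−3.57, limma adjusted p = 2.8e-06), and SUT351, next to SUT350, fell by 2.82. SUT350 itself had 265 and 337 in MMS, against 1000, 2239, 3110 and 2628 in WT G1 (−2.79, limma adjusted p = 0.000202).

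The same counts were made in the mutants. In rrp6Δ, of 99 genes divergent to SUTs that rose, 8 rose and 16 fell, beside 6 and 4 of 76 divergent to SUTs that did not pass. Of 236 genes opposite SUTs that rose, 30 rose and 26 fell, while opposite SUTs that did not pass 12 rose and 10 fell of 140. Over all coding rows in rrp6Δ, 8.64% rose and 9.19% fell. In xrn1Δ, of 228 genes opposite SUTs that rose, 106 rose and 44 fell, beside 45 and 30 of 122 opposite SUTs that did not pass. Of 83 genes divergent to SUTs that rose, 31 rose and 23 fell, beside 21 and 29 of 66 divergent to SUTs that did not pass. Over all coding rows in xrn1Δ, 35.1% rose and 32.8% fell. In rad50Δ, 12 of 24 genes divergent to SUTs that rose also rose and 2 fell, beside 21 and 23 of 149 divergent to SUTs that did not pass. Over all coding rows in rad50Δ, 12.8% rose and 12.1% fell. Of 73 genes opposite SUTs that rose in rad50Δ, 20 rose and 4 fell, beside 61 and 11 of 298 opposite SUTs without a call. In mre11Δ, of 54 genes opposite SUTs that rose, 12 rose and 3 fell, beside 58 and 13 of 307 opposite SUTs without a call. Over all coding rows in mre11Δ, 12.1% rose and 11.9% fell. In both deletions, genes opposite SUTs rose more often than they fell, whether or not the SUT passed. No test was made on any of these counts of neighbouring genes.

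SUT457 and SUT719 were named for earlier work on them. SUT457 rose in rrp6Δ, with 230 and 241 normalized reads in rrp6Δ, against 127, 126, 168 and 129 in WT G1 (log2 change 0.78, limma adjusted p = 0.00974). SUT719, whose transcription is known to lower SUR7 opposite it, averaged 134 in xrn1Δ and 96.0 in rad50Δ, against 38.4 in WT G1 (limma adjusted p = 0.000333 and 0.0139). SUT125 was not a member.

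The rows of another type whose group means most resembled the 5 largest xrn1Δ rises, by Pearson correlation of log2 means over 8 groups, were XUT0325 for SUT643 (r = 0.974), FRT1 for SUT048 (0.984), YMR001C-A for SUT225 (0.974), YSP1 for SUT238 (0.991) and YIL151C for SUT072 (0.996). The points share libraries, and xrn1Δ is the extreme group of each.

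Of 44 listed genes for RNA decay, termination, export and the chromatin of noncoding transcription, all were tested. In rrp6Δ, 4 rose and 1 fell, beside 8.64% and 9.19% of coding rows, the last being the deleted RRP6 itself. NRD1, which binds early-terminating transcripts and is known to limit its own RNA in that way, rose by 1.88 (limma adjusted p = 8.51e-06) and its partner NAB3 by 0.81 (0.0129). The rise of NRD1 was not particular to rrp6Δ. It also rose in xrn1Δ (0.99, limma adjusted p = 0.00037), mre11Δ (0.83, 0.00843), rad50Δ (0.70, 0.0184) and MMS (0.65, 0.0119). In xrn1Δ, 11 rose and 16 fell, beside 35.1% and 32.8% of coding rows, and the decreases include the deleted XRN1 itself. Those that passed also include the helicase gene DHH1 (1.72, limma adjusted p = 1.68e-08) and the nuclear exonuclease gene RAT1 (−0.61, 0.000201). In rad50Δ, 3 rose and 11 fell, of which 6 are among 13 exosome genes, beside 12.8% and 12.1% of coding rows. In mre11Δ 2 rose and 12 fell, beside 12.1% and 11.9%. None passed in mre11-H125N or ku70Δ, and in MMS 9 rose and 10 fell, near the 23.5% and 23.5% of coding rows. The median log2 change of the list was −0.24 in rad50Δ, −0.22 in mre11Δ and 0.06 in rrp6Δ.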

How the data were processed

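Strand-specific total RNA of 17 libraries was analysed, and the other 12 of 29 samples were not analysed here. Per the submitters' processing notes, the tools were STAR 2.5.3, SAMtools 0.1.19 and DESeq2 (no version), with build R64. Each deposited signal value is a count of reads on a row over its library's size factor: all values lay within 0.02 of a whole multiple of 1 step, and whole reads were recovered in 16 libraries (not in ku70Δ, whose step is near 1). The counting program and its treatment of multiply aligned reads are not given in the sources used here. The authors' density columns (25) and mean read counts of groups (8) were left out.

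The fit was limma 3.58.1 in R 4.3.3 (trend, robust) on log2(value + 1) over 17 libraries in 8 groups and 16559 rows with a mean of at least 10, with p-values adjusted by Benjamini-Hochberg over all rows and a threshold of 0.05. It was tested on simulated data. Alternatives were pseudocounts of 8 and 0.5, no filter, TMM and coding-row scaling, edgeR 4.0.16 and DESeq2 1.42.0 on whole reads, fits of the compared groups alone, a replicate block, leaving out each library, and members with no coding transcript on their strand. Subsets of WT libraries and leaving out library 1 of 3 groups were added after seeing the data.

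Positions are those of the table (R64), in which 99.4% of 5789 matched coding rows had RefSeq's start and end. Named SUTs are the 5 furthest up and 5 furthest down of the SUTs that passed and lay beyond all WT libraries, the 3 in each direction between xrn1Δ and rrp6Δ, the 5 highest per kb in WT, and SUT457 and SUT719. The members and lists were chosen with earlier results of these data known. Promoter and SUT sequences were not analysed here. Precision is limited by reads for low members (15 of 734 had 0 in at least 1 library) and otherwise by the spread between libraries, 1.58 to 7.57 times that of counting alone in variance.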

Additional observations from a re-analysis of the deposited data

Results flagged for a closer look

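Among 55 values checked in the 4 WT G1 libraries, 5 had 1 library apart from the others, by a gap to the nearest library divided by the whole range (in brackets) above Dixon's 95% critical value for 4 samples; chance alone flags about 1 in 20. SUT465 had 18.1 normalized reads in WT library 1 and 1.71, 1.63 and 0.914 in the others (0.954). SUT158 had 284 in WT library 1 and 445, 444 and 434 in the others (0.932). SUT058 had 15.3 in WT library 1 and 23.9, 23.6 and 24.7 in the others (0.883). SUT743 had 8.53 in WT library 2 and 23.7, 22.0 and 24.7 in the others (0.832). SUT457 had 168 in WT library 3 and 127, 126 and 129 in the others (0.937). WT library 1 also had the highest summed S phase genes of WT, and the part of phase in these values was not tested.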

How the results depend on the processing

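Of 111 alternative counts of SUTs past the threshold, other than those leaving out a library, 98 lay within 1.5 times the reported one. The 111 include counts over the 631 members with no coding transcript on their strand. Those reuse the reported fit, so they could hardly differ from it. With only the compared groups fitted, which leaves fewer libraries for the spread, the counts were 48 in rad50Δ, 26 in mre11Δ, 0 in mre11-H125N, 155 in MMS and 16 between mre11Δ and mre11-H125N. In mre11-H125N the count was 31 with DESeq2, 56 with WT libraries 1 and 2 only, and 5 with WT libraries 3 and 4 only or without library 1 of WT, rad50Δ and mre11Δ. In ku70Δ it was 25 with WT libraries 1 and 2 only and 6 without those libraries 1. The cause was not tested.

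Leaving out 1 library gave 35 to 153 in rad50Δ, 71 to 123 in mre11Δ, 1 to 19 in mre11-H125N, 271 to 444 in rrp6Δ, 376 to 482 in xrn1Δ, 2 to 10 in ku70Δ, 133 to 271 in MMS, 306 to 329 between xrn1Δ and rrp6Δ, and 10 to 93 between mre11Δ and mre11-H125N. The highest count came without WT library 3 in all 6 mutants against WT.

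Replicate numbers did not pair the libraries as a whole: deviations of same-numbered libraries correlated above 0.1 in 8 of 42 pairs (−0.334 to 0.451). All 6 pairs among rad50Δ, mre11Δ and WT G1 were among these 8 (lowest 0.210), a hint from the data, with only numbers 1 and 2 in common. In a group of 2 libraries the deviations mirror each other, so pairs without WT G1 give the same r for numbers 1 and 2. The pairs are therefore not separate observations, and mre11-H125N with rrp6Δ also stood at 0.416. With a replicate block, the count was 57 in mre11-H125N and 28 in ku70Δ, and within 1.5 times elsewhere, and SUT727, SUT293, SUT380 and SUT058 in mre11Δ and SUT208 in rrp6Δ did not pass. No named SUT changed direction under any alternative run, and 27 of 67 named results lost their call under at least 1.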
